A study of Mus musculus with 100 samples.

Results

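H3K27ac ChIP-seq was compared between bone marrow-derived macrophages (BMDMs) treated with KLA and with vehicle (Veh), in cells of PGC1b flox/flox mice that carried no Cre recombinase. The 4 libraries used, 2 for each treatment, were chosen by genotype, mark and treatment from 100 samples in the series. KLA (Kdo2 lipid A) is the lipid part of bacterial endotoxin and activates Toll-like receptor 4 (TLR4), and the cells had been treated for 6 h after serum starvation. The flox alleles mark Ppargc1b (coding for PGC1b) for deletion, and without Cre both alleles stay in place, so these cells served the study as controls for the same alleles with Cre driven by the myeloid LysM promoter, here called Pgc1b flox Cre. Wild-type (WT) cells given DMSO, the solvent of an HDAC3 inhibitor, and a separate set of WT cells, each with Veh and KLA, are used for comparison, as are WT libraries for 8 DNA-bound or chromatin-associated proteins. The labels do not say whether replicate libraries came from separate animals, so p-values measure the spread between these libraries only. Tags were counted in 29767 windows of 1000 bp, each centered on an open chromatin (ATAC-seq) peak of vehicle-treated WT cells, so that sites opened by KLA alone have no window.

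Acetylation of lysine 27 on histone H3 is placed by the acetyltransferases p300 and CBP and removed by deacetylases, among them HDAC3 in the NCoR corepressor complex. It marks active promoters and enhancers, and its gain or loss at a site follows the activity of that element. In macrophages, open chromatin is set up by lineage factors such as PU.1, C/EBP and AP-1 proteins, onto which TLR4 signaling brings NF-kB and, through secreted interferon, STAT and IRF proteins.

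A short stretch of the windows that gained or lost the mark and held a searched motif is shown here, on the plus strand of mm10, 5′ to 3′. In 3 gained windows the capitals mark a kB match (GGANTTTCC, where N is any base, on either strand), the site class bound by NF-kB. These lie at Gbp5 (chr3:142496725-142496924), Myd88 (chr9:119339996-119340025) and Tapbp (chr17:33919592-33919621).
Gbp5: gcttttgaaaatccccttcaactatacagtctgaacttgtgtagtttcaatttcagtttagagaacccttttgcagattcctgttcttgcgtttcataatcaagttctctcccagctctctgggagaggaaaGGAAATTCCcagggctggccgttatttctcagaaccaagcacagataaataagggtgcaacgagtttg
Myd88: gctcgcctgtGGAGTTTCCtacttccctta
Tapbp: accagatcggGGAATTTCCagttcctcacc
In 3 lost windows the capitals mark an E-box (CACGTG) at Cebpa (chr7:35119018-35119217) and E2f1 (chr2:154569202-154569231), and a PU.1 match (GAGGAAGT) 56.7 kb from the start of Slc40a1 (chr1:45868752-45868951).
Cebpa: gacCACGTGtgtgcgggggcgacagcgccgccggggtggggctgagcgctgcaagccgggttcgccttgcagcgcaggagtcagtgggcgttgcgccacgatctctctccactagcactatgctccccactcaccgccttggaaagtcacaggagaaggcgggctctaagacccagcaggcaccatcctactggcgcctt
E2f1: ggcagatgggCACGTGacaacacccagctc
Slc40a1: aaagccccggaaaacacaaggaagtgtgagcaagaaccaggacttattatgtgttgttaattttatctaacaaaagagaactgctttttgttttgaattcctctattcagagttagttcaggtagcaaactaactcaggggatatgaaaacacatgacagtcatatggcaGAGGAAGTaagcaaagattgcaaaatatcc
The stretch is the middle 200 bp of the window, or 30 bases around the match where those 200 bp overlap an annotated exon. The Gbp5 stretch also held 2 overlapping matches to the ISRE half-site pattern (AAANNGAAA), the element of interferon-induced genes.

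The flox libraries held 14.4 to 17.8 M tags, where M is 1e6. Of these, 35.8% and 35.9% fell in the windows in the Veh libraries and 29.9% and 30.1% in the KLA libraries. Replicates correlated with r = 0.972 (Veh) and r = 0.970 (KLA) over log2 tags, and their counts differed by more than sampling noise (chi-square per window 2.32 and 2.20), so none was a repeat deposit. All 8 macrophage marker genes had a window, with summed levels of 3223 to 3385 tags per 10 M (10 M library tags) in Veh and 3596 to 3631 in KLA. Of 20 markers of other cell types, 15 had no window, the B cell factor Ebf1 and the endothelial Cdh5 were below 10 tags per 10 M in every library, and the summed level was 149 to 191 in Veh and 355 to 361 in KLA. The gained window of these markers lay in an intron of Pecam1, an adhesion receptor of endothelium and also of leukocytes, and held 91.4 and 107 tags per 10 M in Veh and 335 and 321 in KLA. The part of other cell types in the results was not tested.

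KLA changed the mark in both directions. Among 25197 windows with at least 16 tags in at least 1 library, 1315 gained and 6450 lost H3K27ac with KLA, at an adjusted p under 0.05 and more than a 2-fold change (edgeR's quasi-likelihood test with Benjamini-Hochberg adjustment). These are 5.22% and 25.6% of the tested windows. The median gained window went from 34.9 to 126 tags per 10 M and the median lost window from 82.2 to 26.5, so gained windows started low and lost windows started near the 105 of windows that were not called. A further 2123 windows were higher and 5694 lower at the same p within 2-fold. Next to the fold limit, Hp1bp3 (log2 fold change 1.0004) was just inside and Flrt3 (0.9997) just outside on the gained side, and Gpr174 (-1.0001) and C030034L19Rik (-0.9998) on the lost side.

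The balance of gain and loss rested on the scaling. Tags were scaled to the library totals, under which the median window changed by -0.45 on the log2 scale and 83.1% of calls were losses. With TMM scaling, which sets the bulk of windows to no change, that median was -0.02 and 58.3% of calls were losses, with 2480 windows gained and 3470 lost. All 1315 gained windows and 3470 of the lost windows were called the same way in both, and 0 windows were called in opposite directions. Lost windows named below that were not called with TMM are pointed out. TMM counts of gene lists are to be set against the 2480 gained and 3470 lost of 25197 windows, not against the shares with library totals. The window with Tbl1xr1 as nearest gene, at its promoter, was not called, and its response changed sign (log2 fold change -0.29, and 0.14 with TMM).

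**Figure D1:**
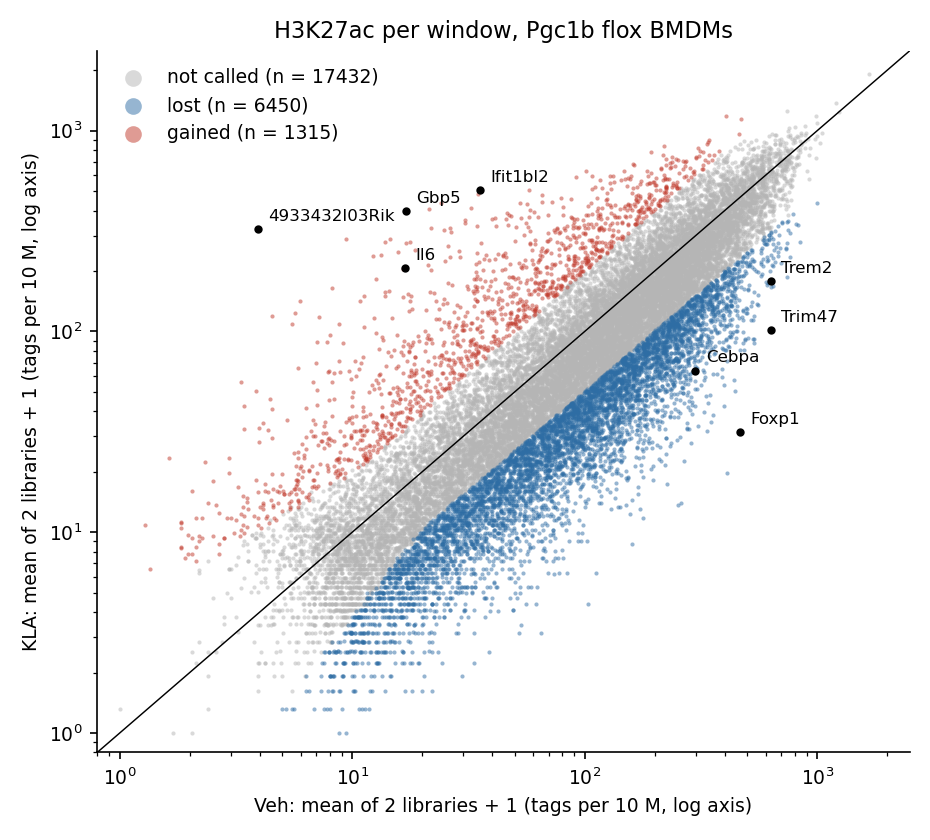
H3K27ac in each tested window, as the mean of 2 Veh libraries (horizontal) against the mean of 2 KLA libraries (vertical), in tags per 10 M plus 1 on log axes, with the line of equality. The 1315 gained windows (red) reach down to the lowest Veh levels, whereas the 6450 lost windows (blue) extend to high Veh levels, and 8 windows are marked by their nearest gene.

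Interferon-stimulated genes held the largest share of gains of the gene lists examined. Of their 29 tested windows, 22 gained the mark (75.9%, against 5.22% of all windows) and 0 lost it (against 25.6%). The median log2 fold change was 2.12 (2.55 with TMM), against -0.45 over all windows. At the promoter of Gbp5, a guanylate-binding GTPase of host defense (chromosome 3, 142496324 to 142497324), the window held 17.4 and 14.5 tags per 10 M in Veh and 398 and 392.004 in KLA. This is a 24.4-fold gain (log2 fold change 4.61, SE 0.17, adjusted p = 1.07e-129). A window with Ifit1bl2 as nearest gene, at the promoter of the Ifit1 transcript (chromosome 19, 34640311 to 34641311), held 42.1 and 27.02 in Veh and 533 and 476 in KLA, a 14.3-fold gain (SE 0.14, adjusted p = 9.26e-141). Ifit1 codes for an RNA-binding antiviral protein.

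Windows of further interferon genes also gained the mark. Usp18, an interferon-induced deISGylase that restrains the interferon receptor, went from 49.9 and 63.7 to 476 and 535 tags per 10 M at its promoter (9.0-fold, adjusted p = 9.93e-116), and Mx2, a dynamin-like antiviral GTPase, from 131 and 124 to 582 and 600 (4.62-fold, adjusted p = 3.73e-100). Gbp2, in the first intron, went from 27.5 and 18.7 to 427 and 439 (18.4-fold, adjusted p = 1.87e-130). In none of these windows did Veh and KLA libraries overlap, but they were picked by low p, so this adds no support. The share of all tested windows without overlap was not counted. Other members with a gained window of the highest level were Irf7 (3.61), Mx1 (3.55), Isg20 (3.21), Rsad2 (2.64) and Stat2 (1.41), all as log2 fold changes. The highest windows of Irf1 and Oasl1, at 0.43 and 0.15, were not called. Ifit3 and Isg15 had no window, and the window listed for Ifit1 itself was under the filter.

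Cytokine genes were the next group. Of 38 tested windows, 20 gained the mark (52.6%, against 5.22% of all windows) and 1 lost it (2.63%, against 25.6%), or 28 and 0 with TMM. The median log2 fold change was 1.24. Il6, the pyrogenic cytokine of the acute phase, held 15.1 and 16.6 tags per 10 M in Veh and 198 and 214 in KLA in its first intron (chromosome 5, 30012773 to 30013773), a 13.0-fold gain (SE 0.22 on the log2 scale, adjusted p = 2.77e-58). Il1a, coding for the alarmin interleukin 1 alpha, had a window at -10.2 kb from its TSS that went from 16.8 and 24.9 to 211 and 194 (9.82-fold, adjusted p = 6.57e-54). The neighboring Il1b had 46.6 and 51.3 in Veh and 283 and 281 in KLA in a window at -2.44 kb, inside the antisense transcript Il1bos (5.78-fold, adjusted p = 4.79e-54). An intergenic window 17.9 kb from Il12a, coding for the p35 subunit of interleukin 12, went from 6.73 and 4.85 to 55.7 and 54.0 (9.23-fold, adjusted p = 1.34e-15). The windows with the most tags of Il1rn (2.19), Il12b (2.11), Il23a (1.64), Il18 (1.25) and Il15 (1.13) were gained as well, in log2 fold changes, whereas those of Il10 (-0.04) and Csf3 (0.08) were not called.

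Chemokine genes followed with 9 of 21 windows gained (42.9%, against 5.22% of all windows) and 1 lost (4.76%, against 25.6%), or 11 and 0 with TMM. Ccl5, which draws T cells and monocytes, had an intergenic window at -10.7 kb (chromosome 11, 83540668 to 83541668) with 26.9 and 22.9 tags per 10 M in Veh and 246 and 282 in KLA, a 10.5-fold gain (SE 0.18, adjusted p = 1.04e-69). At the promoter of Ccl12, a monocyte chemoattractant, levels went from 94.3 and 83.8 to 355 and 349 (3.93-fold, adjusted p = 3.09e-49). A window with Cxcl11 as nearest gene, in an intron of Art3, went from 222 and 218 to 558 and 601 (2.64-fold, adjusted p = 1.46e-52). Cxcl10 (log2 fold change 2.43) and Ccl7 (2.33) were also gained, whereas the window of Ccl17, a chemokine of alternatively activated cells, was lost at -1.25 (not called with TMM). The highest windows of Ccl2, Ccl3, Cxcl1 and Cxcl2, with log2 fold changes of 0.32, 0.64, 0.23 and 0.46, were not called, although Ccl3 was with TMM.

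**Figure D2:**
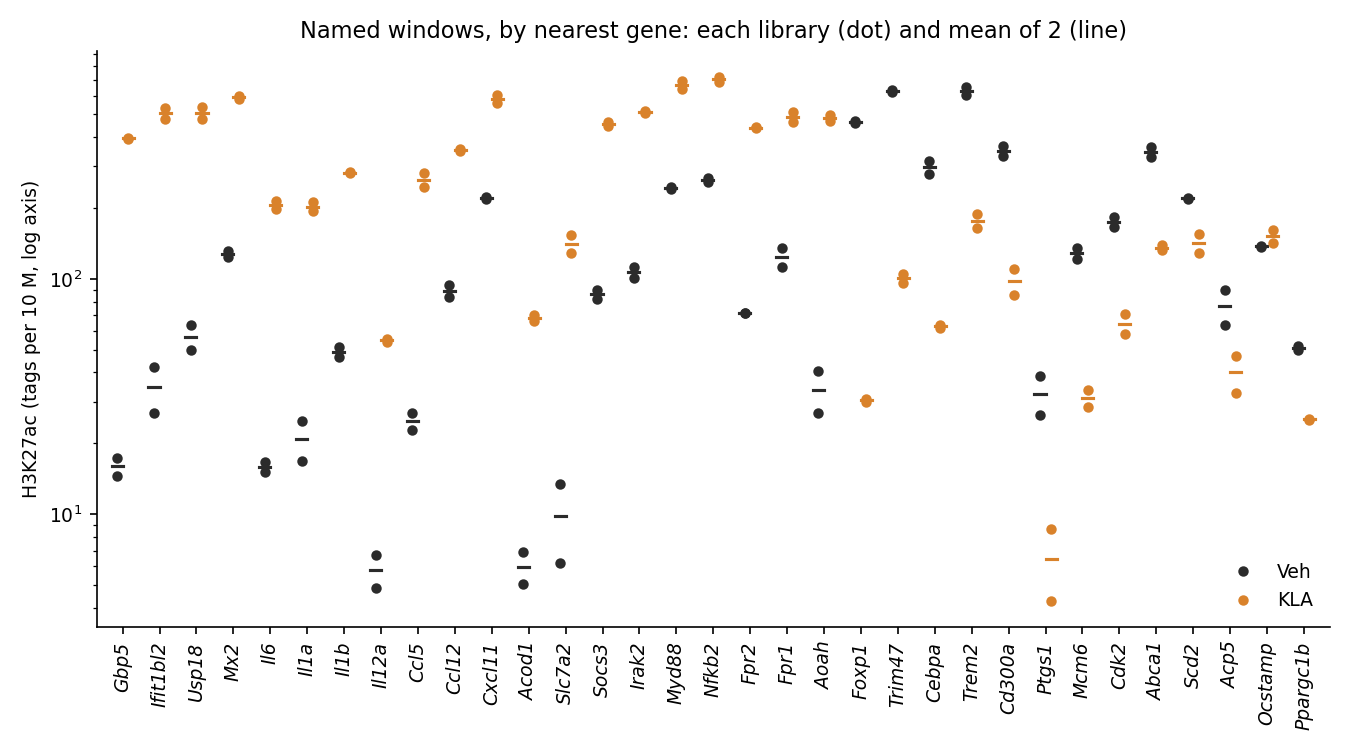
H3K27ac of named windows in each library (points) with the mean of 2 (lines), by nearest gene, in tags per 10 M on a log axis, for Veh (black) and KLA (orange). From Gbp5 to Aoah the KLA points lie above the Veh points, from Foxp1 to Acp5 below, and at Ocstamp, which was not called, they lie at 138 and 136 against 142 and 162.

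Over genes of Toll-like receptors and adaptors, 14 of 62 windows were gained (22.6%, against 5.22% of all windows) and 11 lost (17.7%, against 25.6%), with a median of -0.10. With TMM these were 21 and 4. Irak2, a kinase relaying the signal of MYD88, had an intronic window with 101 and 112 tags per 10 M in Veh and 507 and 516 in KLA (4.81-fold, adjusted p = 3.47e-91). The promoter of Myd88, the adaptor shared by most Toll-like receptors, went from 241 and 247 to 638 and 694 (2.73-fold, adjusted p = 1.03e-62), and that of Tbk1, a kinase upstream of IRF3, from 482 and 436 to 911 and 1012 (2.09-fold, adjusted p = 2.84e-52). Groups did not overlap at any of the 3, which were picked by low p. Among receptors, the highest windows of Tlr2 (1.23), Tlr3 (1.13) and Tlr8 (1.02) were gained, that of Tlr5 was lost (-2.79), and that of Tlr4 (-0.79) was not called.

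NF-kB subunit and inhibitor genes had 8 of 47 windows gained (17.0%, against 5.22% of all windows) and 7 lost (14.9%, against 25.6%), with a median of 0.15. With TMM 15 were gained and 5 lost. Nfkb2, coding for the p100 precursor of the noncanonical pathway, had 258 and 267 tags per 10 M in Veh and 686 and 720 in KLA at its promoter (2.68-fold, adjusted p = 2.47e-65). A window at the 3′ end of Rela, coding for p65, lost the mark, from 196 and 188 to 69.2 and 62.0 (2.92-fold lower, adjusted p = 8.01e-20), as did an intergenic window at -4.82 kb from Tnip3, an A20-binding inhibitor, from 406 and 511 to 184 and 191 (2.43-fold lower, adjusted p = 1.32e-36), the latter not with TMM. The highest windows of Tnfaip3 (0.70), Relb (0.58) and Nfkbia (0.56) stayed within 2-fold, although Tnfaip3 and Relb were gained with TMM.

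Among 52 windows of the negative feedback genes (SOCS, DUSP, sprouty and related), 7 were gained (13.5%, against 5.22% of all windows). Another 13 were lost (25%, near the 25.6% of all windows), or 10 gained and 6 lost with TMM. Socs3, an inhibitor of cytokine receptor signaling, had an intergenic window 22.7 kb away with 81.9 and 90.1 tags per 10 M in Veh and 446 and 461 in KLA (5.29-fold, adjusted p = 3.87e-80), and all 3 of its tested windows were gained. The promoter of Socs1 went from 233 and 218 to 572 and 579 (2.55-fold, adjusted p = 2.66e-51). With library totals Spry2, an antagonist of growth factor signaling to ERK, lost the mark in 8 of 13 windows (TMM count not given). Its promoter went from 439 and 472 to 206 and 219 (2.14-fold lower, adjusted p = 2.80e-28, not called with TMM).

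Of 75 windows of AP-1 and immediate early factor genes, 2 were gained (2.67%, against 5.22% of all windows) and 22 lost (29.3%, against 25.6%). With TMM 8 were gained and 10 lost, near the TMM shares of all windows (2480 and 3470 of 25197). Fosb, an AP-1 subunit, had an intergenic window that went from 25.8 and 35.3 tags per 10 M to 3.67 and 1.86 (10.7-fold lower, adjusted p = 1.03e-09). With library totals Myc, a growth regulator, lost the mark in 5 of 6 windows, with 253 and 254 in Veh and 91.8 and 118 in KLA in its first intron (2.41-fold lower), and Egr2 in all 3, with 292 and 289 against 128 and 140 at its promoter (2.17-fold lower). Myc and Egr2 at these windows were not called with TMM. Jun, with 14 windows, had 0 gained and 7 lost with library totals. The TMM counts of these single genes are not given.

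Metabolic genes of the activated macrophage followed. In the list of nitric oxide, arginine, itaconate and glycolysis genes, 8 of 45 windows were gained (17.8%, against 5.22% of all windows). Another 4 were lost (8.89%, against 25.6%), or 12 gained and 3 lost with TMM. Slc7a2, a transporter that brings in arginine, went from 13.5 and 6.24 tags per 10 M to 153 and 129 at its promoter (13.8-fold, SE 0.26, adjusted p = 2.52e-43). Sod2, the mitochondrial superoxide dismutase, went from 118 and 116 to 324 and 330 (2.79-fold, adjusted p = 2.90e-31), and an intronic window of Acod1, which makes itaconate, from 5.05 and 6.93 to 70.4 and 66.4 (11.4-fold, adjusted p = 2.47e-21). The highest windows of Gapdh (-0.81), Ldha (-0.62) and Pkm (-0.0015) were not called. Nos2 had no window.

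Of 48 windows of macrophage surface receptor genes, 10 were gained (20.8%, against 5.22% of all windows) and 12 lost (25%, near the 25.6% of all), or 14 and 8 with TMM. At the promoter of Trem2, a lipid-sensing receptor of resident macrophages (chromosome 17, 48345895 to 48346895), levels went from 604 and 655 tags per 10 M to 165 and 188 (3.56-fold lower, adjusted p = 3.09e-83). With library totals Cd300a, an inhibitory receptor, lost the mark in all 7 windows (TMM count not given). The one with the most tags went from 332 and 367 to 110 and 85.6 (3.56-fold lower, adjusted p = 5.27e-47). The scavenger receptor gene Msr1 gained it, from 250 and 243 to 484 and 573 (2.14-fold, adjusted p = 2.02e-32), as did Marco (log2 fold change 1.88) and Adgre1, coding for F4/80 (1.14). Csf1r, the receptor for the growth factor of these cells, was at 521 and 518 in Veh and 514 and 534 in KLA. Its levels overlapped between treatments.

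Chemotactic receptor genes included formyl peptide receptors, which sense bacterial peptides. Of 36 windows, 5 were gained (13.9%, against 5.22% of all windows) and 6 lost (16.7%, against 25.6%), or 8 and 6 with TMM. Windows near Fpr2 went from 71.3 and 71.4 tags per 10 M to 435 and 442 (6.15-fold, adjusted p = 1.62e-85) and near Fpr1 from 135 and 112 to 510 and 464 (3.92-fold, adjusted p = 3.87e-70). P2ry14, a receptor for UDP-glucose, had 61.7 and 91.4 in Veh and 241 and 269 in KLA (3.37-fold, adjusted p = 9.05e-29). The 6 losses all had Cxcr4, a receptor for a bone marrow retention signal, as nearest gene, out of 8 tested windows there. Antigen presentation and costimulation genes had 3 of 11 windows gained (27.3%, against 5.22% of all windows) and 1 lost (9.09%, against 25.6%), or 4 and 1 with TMM. Of the 18 genes in this list 11 had no window, among them Tap1, Ciita, H2-Aa and Cd40. Cd86 held 2 of the gained windows, although its highest window (-0.71) was not called. The promoter of Tapbp, a peptide-loading chaperone, went from 150 and 195 to 468 and 458 (2.70-fold, adjusted p = 7.37e-45).

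Lineage factor genes build and keep the macrophage state. Of 129 windows, 47 were lost (36.4%, against 25.6% of all) and 14 gained (10.9%, against 5.22%), with a median of -0.62. With TMM 31 were lost and 20 gained, with a median of -0.19. With library totals Maf held 12 of the gained and 7 of the lost windows, and Klf4 12 and Mef2a 10 of the lost ones. The Cebpa promoter (chromosome 7, 35118617 to 35119617), whose gene codes for a factor of myeloid commitment, went from 279 and 317 tags per 10 M to 63.7 and 62.0 (4.73-fold lower, SE 0.14, adjusted p = 1.49e-52). Klf2, a restrainer of inflammatory genes, went from 307 and 279 to 90.6 and 131 in an intergenic window (2.65-fold lower, adjusted p = 8.81e-27), a loss not called with TMM. In both windows, which were picked by low p, Veh and KLA libraries did not overlap. Spi1, coding for PU.1, was at 842 and 852 in Veh and 942 and 961 in KLA and was not called, and neither were the highest windows of Irf8 (-0.48), Cebpb (-0.39) and Runx1 (0.16). With only the highest window of each gene, 0 of 16 lineage factor genes were gained and 3 lost, a smaller share of losses than the 25.6% of all windows.

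Prostaglandin and leukotriene genes had 19 of 54 windows lost (35.2%, against 25.6% of all windows) and 7 gained (13.0%, against 5.22%), with a median of -0.74. With TMM 12 were lost and 11 gained, with a median of -0.31. An intronic window of Alox5ap, coding for the protein that presents arachidonic acid to 5-lipoxygenase, went from 789 and 864 tags per 10 M to 323 and 355 (2.43-fold lower, adjusted p = 1.05e-60). Ptgs1, coding for cyclooxygenase 1, had an intergenic window with 38.7 and 26.3 in Veh and 4.29 and 8.68 in KLA (5.01-fold lower, adjusted p = 6.32e-08). Ltc4s, coding for leukotriene C4 synthase, went from 27.5 and 22.2 to 7.96 and 14.3 (2.24-fold lower, adjusted p = 0.0131). Alox5ap and Ltc4s were not called with TMM. Of the 7 gained windows, 6 had Pla2g4a, coding for the phospholipase that frees arachidonic acid, as nearest gene. Another 3 windows with Pla2g4a as nearest gene were lost. Ptgs2 had no window.

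Of 37 windows of LXR target and cholesterol genes, 4 were gained (10.8%, against 5.22% of all windows) and 7 lost (18.9%, against 25.6%). With TMM the balance turned to 9 gained and 2 lost. Abca1, the cholesterol exporter, had 330 and 362 tags per 10 M in Veh and 139 and 132 in KLA in an intergenic window at -27.5 kb (2.55-fold lower, adjusted p = 1.75e-31, not called with TMM), while 3 of its other windows were gained. Ch25h, coding for cholesterol 25-hydroxylase, an interferon-induced enzyme, went from 37.6 and 32.6 to 125 and 124 (3.53-fold, adjusted p = 7.80e-17). Near the desaturase gene Scd2, levels were 219 and 220 against 129 and 155, a 1.54-fold difference that did not pass the fold limit, and near Scd1 they went from 99.9 and 110 to 42.9 and 59.5 (2.05-fold lower, adjusted p = 1.04e-06, not called with TMM).

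At the Ppargc1b promoter, the gene floxed in these cells, levels were 51.6 and 49.9 tags per 10 M in Veh and 25.1 and 25.4 in KLA, a 2.01-fold loss (SE 0.28, adjusted p = 9.74e-04). With TMM the log2 fold change was -0.58 (adjusted p = 0.0731), and the call was also lost in a fit without 1 of the flox libraries. The other windows of PGC1 coactivator and mitochondrial genes, 10 of 11, were not called. The Ppargc1b window was not a check of the genotype, since the flox cells retain the gene. NCoR complex and acetyltransferase genes had 2 of 38 windows gained (5.26%) and 9 lost (23.7%), close to the shares of all windows, or 3 and 3 with TMM, with Hdac3 at a log2 fold change of 0.27 and Ncor1 at -0.01, neither called.

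Cell cycle and DNA replication genes had the largest share of losses, 19 of 38 windows (50%, against 25.6% of all windows). In this list 1 window was gained (2.63%, against 5.22%) and the median was -1.01 (13 lost, 1 gained and -0.58 with TMM). The promoter of Mcm6, a subunit of the replicative helicase, went from 122 and 135 tags per 10 M to 33.7 and 28.5 (4.11-fold lower, adjusted p = 1.53e-19), and that of Cdk2, the kinase of S-phase entry, from 183 and 166 to 58.2 and 70.7 (2.71-fold lower, adjusted p = 8.61e-17). A window over the first exon of E2f1, the factor driving S-phase genes, went from 307 and 297 to 133 and 114 (2.45-fold lower, adjusted p = 4.24e-24, not called with TMM). Top2a (-1.92), Mcm5 (-1.92), Mcm3 (-1.84) and Ccnb1 (-2.12) were lost under either scaling, in log2 fold changes. The highest window of Cdkn1a, coding for the cell cycle inhibitor p21, was at 0.40 and was not called.

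Iron, acute phase and osteoclast genes had 13 of 31 windows lost (41.9%, against 25.6% of all windows) and 2 gained (6.45%, near the 5.22% of all). With TMM 3 were lost and 2 gained. With library totals 8 of the losses were at Nfatc1, the master factor of osteoclasts, and 2 at Slc40a1, the iron exporter ferroportin. The intronic window of Nfatc1 with the most tags went from 361 and 333 tags per 10 M to 128 and 141 (2.58-fold lower), and the intergenic window nearest Slc40a1 from 171 and 124 to 51.4 and 63.9 (2.57-fold lower, adjusted p = 5.00e-14). Neither was called with TMM. Saa3, an acute phase reactant, went from 25.8 and 24.2 to 69.2 and 75.1 (2.87-fold, adjusted p = 6.28e-08). The osteoclast genes Acp5 (89.8 and 63.7 in Veh, 47.1 and 32.9 in KLA) and Ocstamp (138 and 136, 142 and 162) were not called. The list of other cell types had 1 of 4 windows gained (Pecam1) and 1 lost (Cebpe, a granulocyte factor, from 49.4 and 70.0 to 12.9 and 21.1).

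**Figure D3:**
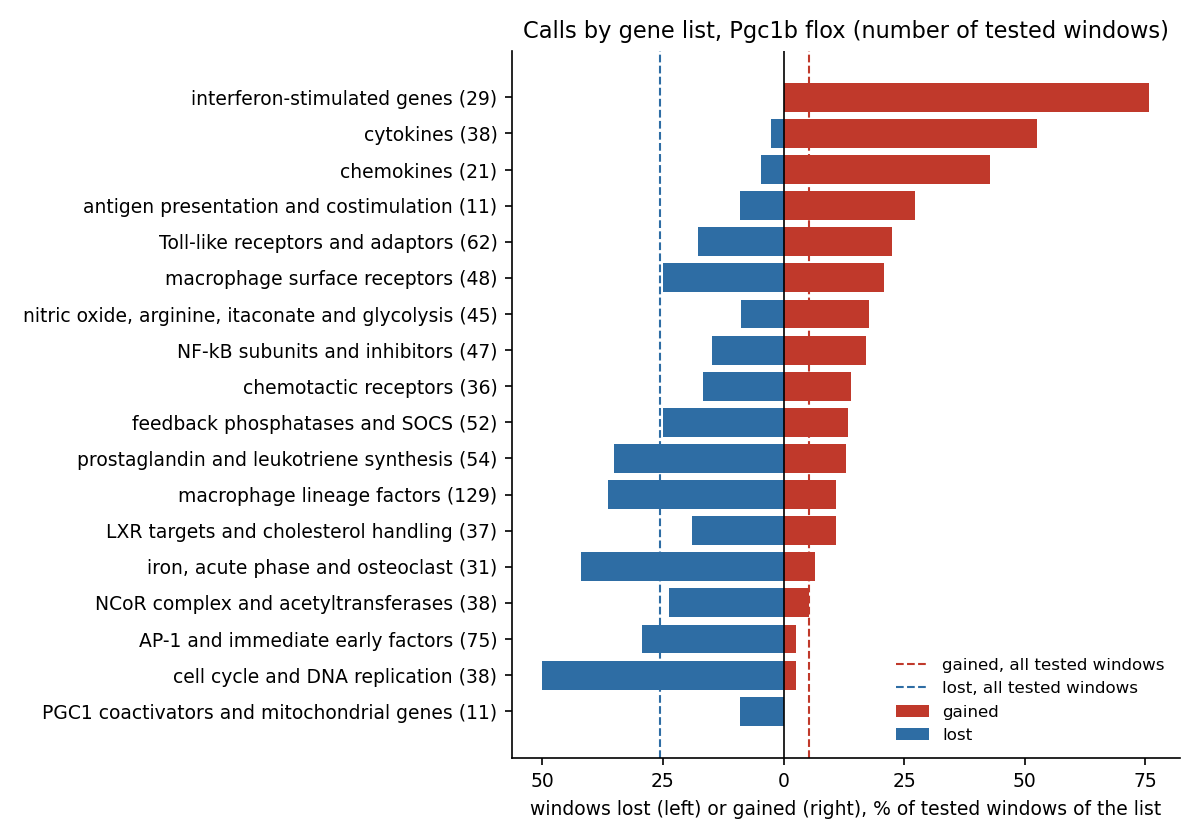
Share of tested windows lost (left, blue) and gained (right, red) for 18 of the 19 gene lists (number of tested windows in brackets), with dashed lines at the shares over all tested windows, 25.6% and 5.22%. Interferon-stimulated genes, cytokines and chemokines lie farthest right, and cell cycle genes reach 50% lost.

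Several of the windows of lowest p lay outside these lists. The largest gain was in an intron of 4933432I03Rik, a noncoding RNA gene (chromosome 14, 103015596 to 103016596), from 1.68 and 4.16 tags per 10 M to 344 and 301 (112-fold, SE 0.25 on the log2 scale, adjusted p = 5.92e-128). An intergenic window at -6.93 kb from Aoah, coding for an enzyme that detoxifies endotoxin, went from 40.4 and 27.02 to 466 and 498.7 (14.03-fold, adjusted p = 5.92e-128). The loss of lowest p was in Foxp1, a factor that restrains monocyte differentiation (chromosome 6, 99436015 to 99437015), from 457 and 470 to 30.0 and 31.0 (15.1-fold lower, adjusted p = 2.17e-134). Next came 1700027F06Rik, from 398 and 415 to 17.8 and 19.8 (21.5-fold lower), Trim47, from 624 and 635 to 105 and 96.1 at its promoter (6.24-fold lower), Gm11747, from 537 and 529 to 85.7 and 88.1 (6.13-fold lower), and Slc9a9, from 457 and 430 to 53.9 and 44.7 (9.0-fold lower). These 7 windows were picked by their low p, so a wide separation of the groups relative to the replicates follows from the choice.

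Calls of one direction lay together at some loci. The loci here and below were picked for having the most gained or most lost windows, so their counts follow from that choice. Over all tested windows 5.22% were gained and 25.6% lost. Windows with 4933432I03Rik as nearest gene were all gained, 7 of 7, and they lie next to Acod1, a neighbor picked out after their values were seen. Together with the window of Acod1, all 8 were gained between -35.0 and 4.58 kb from the Acod1 start, with log2 fold changes from 1.57 to 6.81. The highest of them, at -13.4 kb, went from 175 and 193 tags per 10 M to 542 and 544. Pde4b, coding for a phosphodiesterase that lowers cAMP, had 8 of 14 windows gained and 0 lost, 428 to 569 kb from the gene's most upstream start. Measured from the start listed for each window, the 14 Pde4b windows lay at -54880 to 68941 bp.

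The Maf locus, coding for c-MAF, held the most gained windows, 12 of 33, with 7 lost. The gained windows lay 216 to 547 kb from the gene start and the lost ones from -64.3 to 234 kb, so that gains and losses overlapped only from 216 to 234 kb. At 314 kb the level went from 4.49 and 4.85 tags per 10 M to 130 and 115 (log2 fold change 4.70), and at 88.3 kb from 66.2 and 56.8 to 8.57 and 19.2 (-2.15). At the Maf start itself, levels of 495 and 555 against 709 and 708 were not called. Klf4, coding for a factor of monocyte differentiation, lost 12 of 19 windows, at -582 to -98.8 kb, while its start (251 and 256 in Veh, 126 and 150 in KLA) was not called. Foxp1 lost 12 of 20 windows, and Mef2a, which pairs with lineage factors at macrophage enhancers, 10 of 12.

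**Figure D4:**
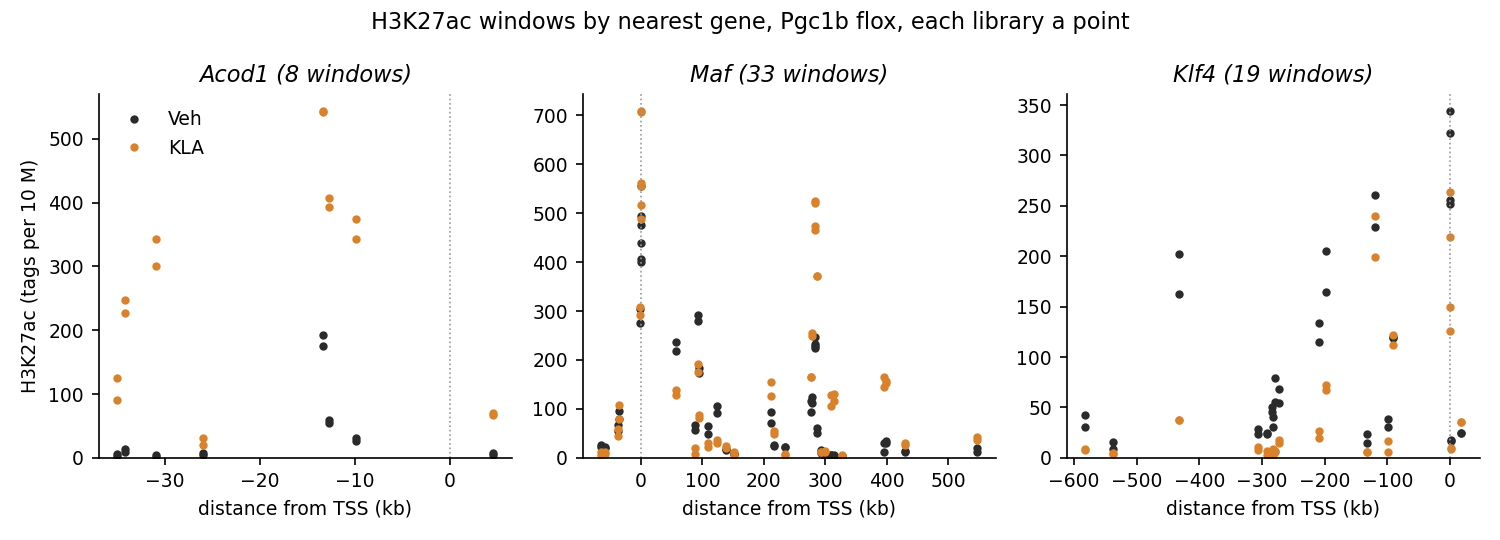
H3K27ac in each library (points) of the tested windows assigned to Acod1 with 4933432I03Rik (8 windows), Maf (33) and Klf4 (19), in tags per 10 M, against distance from the gene start in kb (dotted line). KLA points (orange) lie above Veh points (black) at all 8 windows of the first panel, above them at the 12 gained windows of the Maf locus, and below them at the 12 lost windows of Klf4.

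Loci with 6 gained windows included Il15, Itgb8, Ly6e, Pla2g4a and Rasgef1b, and loci with 10 or 11 lost windows included Dkk2, Slc16a7, Mir21c, Pde4d and S1pr1. With TMM the lost windows numbered 9 at Dkk2, 8 at Slc16a7, Mir21c and S1pr1 each, and 2 at Pde4d, and 11 at Klf4 and 8 at Foxp1 and Mef2a each. Windows with centers under 1 kb apart share tags, so neighbors were counted only from 1 to 10 kb. Of 638 gained windows with such a neighbor, 43.6% had a gained window nearest and 2.04% a lost one. Of 2981 lost windows, 57.2% had a lost window nearest and 0.637% a gained one.

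Called windows were mostly distal. Over 2 kb from a transcription start site (TSS) lay 75.4% of the gained, 75.5% of the lost and 60.4% of all tested windows. Among the 15212 distal windows 6.52% were gained and 32.0% lost, and among the 9985 within 2 kb 3.23% were gained and 15.9% lost. In the annotation, 43.7% of gained and 40.4% of lost windows were intronic and 36.3% and 37.5% intergenic.

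Motif letters were searched on both strands in the middle 200 bp of the windows. A kB match (GGANTTTCC) was in 3.42% of gained, 0.419% of lost and 1.02% of all tested windows, and the ISRE pattern (AAANNGAAA) in 19.6%, 5.80% and 7.41%. A C/EBP match (TTGCNNAA) was in 15.7%, 10.6% and 10.3%. AP-1 matches (TGANTCA) were in 16.7%, 20.3% and 16.3%, and PU.1 matches (GAGGAAGT) in 13.3%, 13.7% and 11.2%. The GC box (GGGCGG), which is frequent in promoters, was in 12.6%, 17.4% and 27.03%, the E-box (CACGTG) in 3.42%, 4.06% and 4.48%, and the CRE (TGACGTCA) in 0.456%, 0.620% and 1.24%.

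Since distal windows differ from promoters in base composition, the shares were also taken among distal windows alone. Of 169 distal windows with a kB match, 23.1% were gained and 13.0% lost, against 6.34% and 32.2% of those without. With an ISRE pattern 13.0% were gained and 22.7% lost, against 5.83% and 33.0%. The AP-1 (5.30% gained, 33.1% lost) and PU.1 (6.28%, 33.1%) matches gave shares near those of all distal windows. A match is only a description of the letters in the window, and a short pattern such as the ISRE one occurs often by base composition.

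The 8 chromatin proteins had been mapped in separate WT libraries with Veh and KLA, and their peaks were matched to windows by centers at most 500 bp apart. A p65 peak lay at 86.8% of gained, 61.8% of lost and 66.1% of all windows, and 7 of the 8 proteins had a peak at a larger share of gained than of lost windows. The exception, PU.1, the pioneer of macrophage enhancers, had a peak at 77.0% of gained and 77.8% of lost windows. NCoR (89.0%, 71.0%), HDAC3 (88.4%, 67.3%), the acetyltransferase p300 (87.3%, 78.2%), PGC1b (77.8%, 62.8%), Fosl2 (67.5%, 56.3%), an AP-1 protein, and ERK1 (64.7%, 47.9%) are given as gained and lost shares.

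The change of these peaks with KLA ran with the change of H3K27ac. The nearest p65 peak had a median log2 fold change of 2.12 at gained, 0.12 at lost and 0.56 at all windows. For Fosl2 these values were 0.99, -1.03 and -0.42, for p300 1.09, -0.70 and -0.20, for PGC1b 0.86, -0.55 and -0.09, and for ERK1 0.93, -0.60 and -0.08. The repressor pair showed the same order, with 0.54, -0.88 and -0.36 for NCoR and 0.62, -0.64 and -0.16 for HDAC3, and PU.1 had 0.22, -0.86 and -0.45. TMM scaling of the peak tables and windows moved the levels of these medians (p65 to 0.60 at gained and -1.21 at lost windows), and the median at gained windows stayed above that at lost windows for all 8.

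Read the other way, windows were split into 3 equal groups by the change of the nearest peak. In the group with the largest p65 increase 17.4% were gained and 10.6% lost, and in the group with the lowest 0.648% and 33.1%. In the group with the lowest PU.1 change 50.6% of windows were lost and 0.613% gained, and in that of Fosl2 46.9% and 0.714%. Across windows with a peak, the correlation of the change in H3K27ac with that of the protein ran from r = 0.446 (p65, n = 16658) to r = 0.550 (PU.1, n = 18111). These are descriptions over windows that share libraries and depth, and the proteins were mapped in cells of another genotype.

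**Figure D5:**
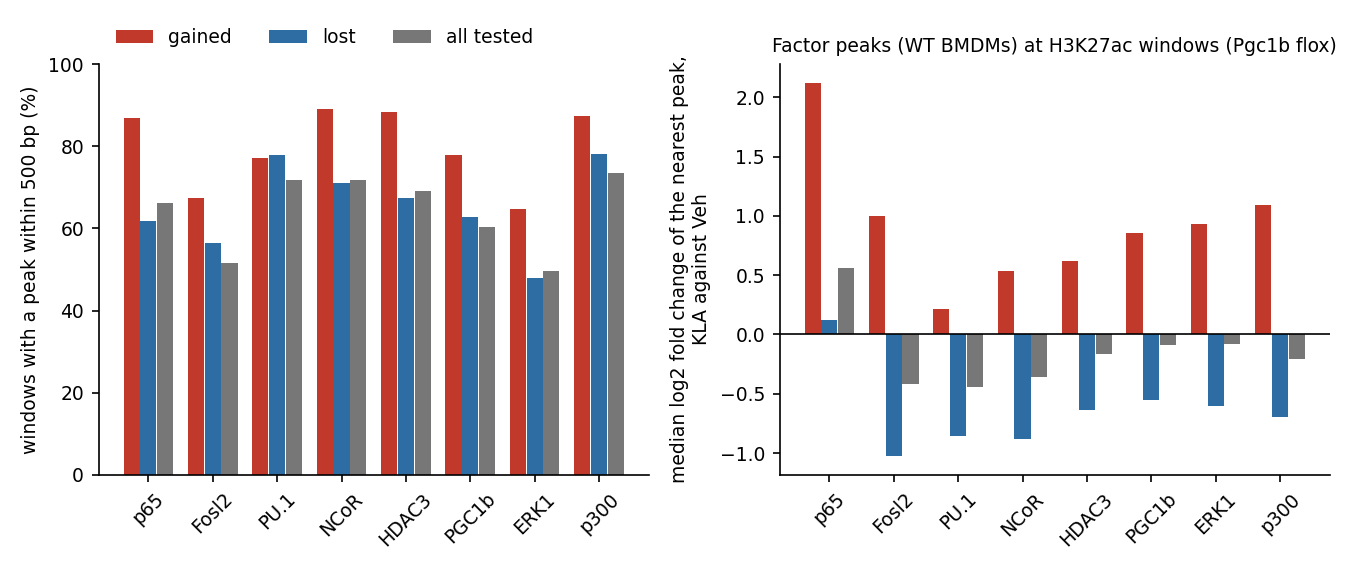
Left, share of gained (red), lost (blue) and all tested (gray) windows with a peak of each protein within 500 bp. Right, median log2 fold change (KLA against Veh, library totals) of the nearest such peak in WT cells, with p65 at 2.12, 0.12 and 0.56 and PU.1 at 0.22, -0.86 and -0.45.

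The same 3 proteins are given for 5 named windows, as log2 fold changes scaled to library totals. At the Gbp5 window they were 4.31 for p65 (adjusted p = 1.41e-06), 1.90 for PU.1 and 2.47 for p300. At the Il6 window p65 was at 4.62, PU.1 at 0.74 and p300 at 3.17, and at the Il12a window p65 was at 1.77 (adjusted p = 0.0120), PU.1 at 2.91 and p300 at 4.22. The mark was gained at each of these. At 1700027F06Rik, where it was lost, p65 was at -3.68, PU.1 at -3.18 and p300 at -4.17. The Foxp1 window, also lost, had 0.82 for p65 (adjusted p = 0.0204). PU.1 was at -0.02 there (adjusted p = 0.902) and p300 at -0.63 (adjusted p = 0.00276). With this scaling the median over all p65 peaks was 1.46, against 0.24 with TMM. The sign of the p65 change at Foxp1 may thus rest on the scaling, and its TMM value is not given.

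The same windows could be followed in other cells. In WT cells given DMSO, on the same windows and with no shared library, 1257 of 1296 gained windows (97.0%) were higher with KLA and 969 (74.8%) were called gained, where the calls over all windows were 6.73% gained and 28.1% lost. Of 6249 lost windows, 6144 (98.3%) were lower and 4752 (76.0%) were called lost. Over all windows 31.8% were higher and 68.2% lower. The response correlated with r = 0.827 over 24403 windows, which share depth and base composition. In the separate WT set, whose regions were shorter peaks matched within 500 bp, 651 of 711 gained windows (91.6%) were higher and 37.3% were called gained, and 2257 of 2745 lost windows (82.2%) were lower and 15.7% were called lost, against 6.49% gained and 3.72% lost over its regions. Over all 14025 matched windows 55.7% were higher and 44.3% lower in that set, and the responses correlated with r = 0.587.

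Differences between the flox and DMSO responses were fewer and unstable. The response was more than 2-fold higher in flox at 429 windows (1.7% of those tested) and lower at 377 (1.5%), in a joint edgeR fit. Without the first DMSO KLA library, 943 were higher and 253 lower, and without the second 364 and 747. Genotype, solvent and experiment cannot be told apart here. Of the 63 named windows 8 differed at an adjusted p under 0.05 with no fold minimum. The share of all tested windows at this threshold is not given. Named windows were mostly picked by a low p in flox, so this count is a description only. Ccl12 gained less in flox (log2 fold change 1.97, against 3.58 in DMSO, where Veh was 22.4 and 34.9 and KLA 359 and 327 tags per 10 M), so that KLA levels were alike and Veh levels differed. Trem2 and Slc40a1 were lost less in flox (-1.83 against -2.82, and -1.36 against -2.35), and Fpr1 and Sod2 gained less (1.97 against 2.69, and 1.48 against 2.20).

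In Pgc1b flox Cre cells, in which the myeloid Cre acts on Ppargc1b, most of these windows responded in the same direction. The median log2 fold change of the 1315 gained windows was 1.55 in flox and 1.20 in flox Cre, and that of the 6450 lost windows -1.53 and -1.59. Both sets were chosen by their change in flox, and such a choice can by itself give a smaller change in other libraries. The median change was smaller in flox Cre at gained windows and slightly larger at lost windows. The part of the choice was not tested, and these medians and the counts within the sets are descriptions only. The difference of the responses was tested in the same fit. Over all tested windows 194 had a response more than 2-fold higher in flox Cre (0.77%) and 1158 lower (4.6%), and with TMM these were 353 and 583. Among gained windows 5 were higher and 116 lower (8.82%), and among lost windows 129 were higher and 216 lower. The share of tags in windows was 22.4% and 21.97% in the flox Cre KLA libraries, against 29.9% and 30.1% in flox KLA. In the Veh libraries it was 31.6% and 30.9% in flox Cre, against 35.8% and 35.9% in flox. The part of these shares in the difference was not tested.

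Of the 63 named windows 12 differed between flox Cre and flox at an adjusted p under 0.05, 10 of them under both scalings. No fold minimum was set here, and the share of all tested windows at this threshold is not given. Named windows were mostly picked by a low p in flox, so these counts are descriptions only. Il1b gained less with Cre, from 53.0 and 74.3 tags per 10 M in Veh to 187 and 185 in KLA (log2 fold change 1.55 against 2.53 in flox, adjusted p = 2.81e-04 for the difference). Aoah (2.92 against 3.81) and Msr1 (0.54 against 1.10) also gained less. Trem2 (-2.57 against -1.83), Cd300a (-2.74 against -1.83) and Nfatc1 (-2.21 against -1.37) were lost more, whereas Klf2 (-0.52 against -1.40) was lost less. Irak2 and Sod2 differed with library totals only (adjusted p = 0.0201 and 0.0399, and 0.242 and 0.277 with TMM).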

How the data were processed

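ChIP-seq for H3K27ac was analyzed in 4 Pgc1b flox libraries (2 Veh, 2 KLA), with 4 flox Cre libraries in the same fit. The deposited tables hold raw tag counts per window, which the authors made from single-end reads of formaldehyde-fixed cells aligned to mm10 with Bowtie2 and counted with HOMER without depth adjustment, keeping at most 3 tags per position. Versions are not given in the sources used here. Windows surround open chromatin of Veh cells.

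Counts were scaled to the library totals in the column headers. Windows with at least 16 tags in at least 1 library were tested with edgeR 4.0.16 (glmQLFit and glmQLFTest, two-sided, Benjamini-Hochberg adjustment over all tested windows, R 4.3.3), and called at adjusted p under 0.05 and more than 2-fold. With 2 libraries against 2, an exact permutation test could not go below 0.333. Factor tables (at least 4 tags) were fitted alike. TMM, DESeq2 1.42.0, other filters, a replicate block and leaving out each library were tried. The procedure was tested on simulated data. The replicate numbers did not pair the libraries.

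Sequence was read from the mm10 reference, on which 28013 of 29595 TSS distances (94.7%) matched those listed within 10 bp. Motifs are exact letter matches. Named windows were the highest of 8 genes taken from the study (Ptgs2 and Cp had none), the 5 gained and 5 lost of lowest p, and in each of 19 gene lists up to 3 genes whose highest window was called at the lowest p (the highest window if none was called). Loci were those with the most called windows, and sequences those of named windows with a kB, PU.1 or E-box match. Other list members given with a fold change alone were chosen after their values were seen. A window was given the nearest gene in the deposited table. The members and lists were chosen with earlier results of these data known. Fold changes from the authors' own comparisons were not used. Some results are not reported here.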

Additional observations from a re-analysis of the deposited data

Results flagged for a closer look

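Differences between responses of the same contrast picked out 6 results, each by a test of the difference itself at an adjusted p under 0.05 and more than 2-fold. The response at 4933432I03Rik was 1.81 lower on the log2 scale in flox Cre than in flox (difference -1.81, SE 0.56, adjusted p = 0.0104), with Veh at 10.6 and 4.64 tags per 10 M and KLA at 243 and 257 in flox Cre. At the Tbl1xr1 promoter the difference was -1.33 (SE 0.12, adjusted p = 1.16e-26). There, levels went from 563 and 538 to 181 and 178 in flox Cre and from 561 and 612 to 480 and 478 in flox. Tbl1xr1 codes for a subunit of the NCoR complex. At Mcm6 the loss was smaller in flox Cre (difference 1.19, SE 0.32, adjusted p = 0.00212), where Veh was 79.2 and 56.4 and KLA 41.9 and 33.9.

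Against WT cells given DMSO, the response of flox cells differed by -1.61 at Ccl12 (SE 0.28, adjusted p = 6.55e-06), by -1.35 at Saa3 (SE 0.34, adjusted p = 0.00386) and by -1.48 at Mcm6 (SE 0.40, adjusted p = 0.00776). Saa3 was at 34.1 and 48.0 tags per 10 M in DMSO Veh and at 315 and 283 in DMSO KLA. Mcm6 was at 41.5 and 27.9 and at 29.1 and 16.8, so its Veh level in DMSO lay below both flox Veh libraries. No explanation was tested for any of these.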

How the results depend on the processing

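Scaling changed the balance of calls. Gained windows numbered 1315 with library totals, 2480 with TMM, 2506 with DESeq2 size factors and 2437 with the DESeq2 Wald test, and 3438 with no fold minimum. Lost windows numbered 6450, and 3470, 3429, 3213 and 12144 in the same order. The median log2 fold change of -0.45 was -0.0227 with TMM, -0.0149 with size factors, -0.0152 in the Wald test and -0.43 with no filter on low counts. Differences between flox Cre and flox were 194 higher and 1158 lower, and 353 and 583 with TMM, 345 and 599 with size factors, and 493 lower in the Wald test. Leaving out each library in turn gave 1258 to 1324 gained, 5996 to 6431 lost, a median of -0.46 to -0.44, 134 to 221 higher and 998 to 1252 lower in flox Cre. For flox against DMSO it gave 205 to 943 higher and 184 to 747 lower: without the first DMSO Veh library 205 and 189, without the second 309 and 184, without the first flox Veh library 287 and 207, without the second 294 and 229, without the first DMSO KLA library 943 and 253, without the second 364 and 747. The replicate numbers did not pair the libraries (11 correlations of deviations, from -0.0160 to 0.0187). A fit with the replicate number as a block gave 1319 gained and 6422 lost and kept the call of all 63 named windows.

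Of the named windows, all 31 gained were called with TMM, size factors and the Wald test, and 15 of 28 lost in each. At Tbl1xr1, not called, the log2 fold change of -0.29 turned to 0.14 with TMM, 0.15 with size factors and 0.15 in the Wald test. Leaving out 1 flox library ended the call of Ppargc1b, Ltc4s, Scd1, Tbk1 or Msr1. The share of windows with the same direction elsewhere, 97.0% (gained, DMSO), 91.6% (gained, WT), 98.3% (lost, DMSO) and 82.2% (lost, WT), was 91.7%, 87.4%, 94.0% and 63.0% with no fold minimum, and with TMM 82.6% (gained, WT), 97.1% (lost, DMSO) and 92.4% (lost, WT). With TMM, 71.5% of gained and 79.1% of lost windows were distal, 16.5% of gained held the ISRE pattern, and 21.5% and 14.7% of lost held AP-1 and PU.1. Over whole windows the gained shares were 9.05% (kB), 54.0% (ISRE), 35.5% (AP-1) and 18.4% (PU.1) and the lost shares 2.84%, 36.4%, 37.2% and 20.1%. With only the highest window of each gene, 3 lists instead of 5 exceeded the background of losses. The cause of these changes was not tested. Changes within 2-fold were left uncalled by the fold minimum, and sites without a window were not measured.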
